A study of Saccharomyces cerevisiae with 8 samples.

Results

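The binding of 4 proteins that transcribe genes with RNA polymerase III (Pol III) was measured at 6 intergenic regions of the yeast ribosomal DNA and its right edge. The members were taken by name, as iRDN37-1, iRDN5-1, iRDN5-2, iRDN5-3, iYLR159W and iYLR161W, which are 6 of the 6399 features on the arrays. Each feature is an intergenic fragment named for a gene with the letter i in front. All lie on chromosome XII of Saccharomyces cerevisiae. Of them, iYLR159W and iYLR161W are named for small open reading frames and not for a ribosomal RNA gene. They were included because the next gene in the RefSeq table (assembly R64) is a 5S gene outside the main repeat.

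The ribosomal DNA is a long tandem array. Each unit holds the 35S gene, which RNA polymerase I transcribes into the precursor of the large ribosomal RNAs, and the 5S gene, which Pol III transcribes from the other strand. At a 5S gene the factor TFIIIA binds inside the gene and brings TFIIIC, which places TFIIIB upstream of the start, and TFIIIB then recruits the polymerase. This differs from tRNA genes, where TFIIIC binds the internal promoter by itself. The repressor Maf1 shuts down Pol III when nutrients are lacking or when rapamycin inhibits the TOR kinase.

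The study immunoprecipitated chromatin of strains that carried an epitope tag on 1 of 4 proteins, and hybridised the DNA to 2-channel arrays. The tags were Brf1-13myc and Bdp1-13myc on 2 subunits of TFIIIB, t95-13myc (called Tau95 on the samples) on a subunit of TFIIIC, and 3HA-C160 on the largest subunit of the polymerase. Cells were in exponential growth in rich YPD medium, and were either untreated (0 min) or held for 30 min in rapamycin at 0.2 ng/µl. On each array Cy5 carried the DNA from the wild type for MAF1 and Cy3 that from the Dmaf1 strain, each with the same tag and treatment. With 4 proteins and 2 times there were 8 deposited arrays, 1 per group, called arrays here although each may combine several hybridisations.

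One value per feature and array was deposited, on a log scale read as log2, with its zero set by the authors at loci not bound by the machinery. The sample labels name the wild-type context for every array. Whether the values stand for that strain alone, and which reference they are set against, is not known. No replicate values were used here, so no value carries an error and no p-value was computed. Differences are described by their size and by their place among all features, and 2-fold means 1 on the log2 scale. Between 5760 and 6282 features had a value per array, and the array medians lay between -0.08 and 0.17. The signal of a repeated gene sums over its copies, so a change in how many copies are bound and a change in how much protein sits on each cannot be told apart. Levels of different fragments are brightness and do not rank them by occupancy.

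A feature's name was found to stand for the region on the side of higher coordinates. For Bdp1 at 0 min the median value of features named for open reading frames was 2.91 where a tRNA gene followed on that side (n = 213) and 0.14 where it lay on the opposite side (n = 195). By this reading iRDN37-1 lies between the start of the 35S gene and the 5S gene RDN5-1, and iRDN5-1 lies between the end of that 5S gene and the next 35S copy, RDN37-2. The feature iRDN5-2 runs from the last 5S gene beside a 35S copy to ASP3-1, the first of 4 asparaginase genes to the right of the repeat. The feature iRDN5-3 runs from the 5S gene RDN5-3 to ASP3-2. The genes RDN5-5 and RDN5-6 follow YLR159W and YLR161W directly. Every 5S gene in the table has a systematic name for the upper strand, so iRDN37-1, iYLR159W and iYLR161W adjoin the start of a 5S gene, the side where TFIIIB sits, while iRDN5-1, iRDN5-2 and iRDN5-3 adjoin its end. The gene table holds 6 copies of the 5S gene and 2 of the 35S gene, which stand for the whole tandem array. Whether the spotted fragments reach into the 5S genes is not known here, and near-identical copies can share signal.

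The regions of the main repeat were among the brightest features for all 4 proteins. The feature iRDN37-1, between the 35S and 5S genes, had 7.53 for Tau95, 8.09 for Brf1 and 6.53 for C160 at 0 min, and the Bdp1 value was missing. At 30 min it had 5.76 for Brf1, 7.51 for Bdp1 and 7.20 for C160, and the Tau95 value was missing. It was the brightest feature on 3 of these 6 arrays, Brf1 and Tau95 at 0 min and Bdp1 at 30 min. Its rank was 3 on both C160 arrays and 12 on the Brf1 array at 30 min.

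The feature iRDN5-1, beyond the end of the 5S gene, had 5.46 for Tau95, 6.27 for Brf1, 5.98 for Bdp1 and 6.15 for C160 at 0 min. At 30 min its values were 5.48 for Brf1, 5.71 for Bdp1 and 5.99 for C160, with none for Tau95. The 7 values lay between 5.46 and 6.27, and its rank ran from 4 to 25. On 4 arrays (Brf1, C160 and Tau95 at 0 min, and C160 at 30 min) it was brighter than all features named for nuclear tRNA genes.

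The regions iYLR159W and iYLR161W, at the start of 5S genes outside the main repeat, are called the outer 5S regions here. The name leaves out iRDN5-3, which adjoins the end of such a gene. These outer 5S regions were bright too, but less evenly over the proteins. The feature iYLR159W had 2.93 for Tau95, 5.15 for Brf1, 3.53 for Bdp1 and 4.41 for C160 at 0 min. In the same order of proteins it had 4.50, 5.83, 3.76 and 5.64 at 30 min. The highest values were those of Brf1 at both times. Its range over the 8 arrays was 2.91, wider than that of 98.9% of the 5487 features with all 8 values, whose median range was 1.20.

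The feature iYLR161W had 2.004 for Tau95, 4.30 for Brf1, 1.59 for Bdp1 and 2.98 for C160 at 0 min. At 30 min it had 3.15 for Tau95, 4.19 for Brf1, 2.06 for Bdp1 and 4.12 for C160. Brf1 was again highest and Bdp1 lowest at both times. Its range of 2.71 was wider than that of 98.0% of those features.

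The other two regions, which begin at the end of a 5S gene and run toward an asparaginase gene, were dim. The feature iRDN5-2 had -0.10 for Tau95, 0.76 for Brf1, -0.65 for Bdp1 and 0.03 for C160 at 0 min, and 0.81, 1.08, -0.04 and 1.09 at 30 min. The feature iRDN5-3 had -0.31 for Tau95, 0.11 for Brf1, -0.13 for Bdp1 and -0.09 for C160 at 0 min, and 0.16, 0.13, -0.18 and -0.11 at 30 min. It stayed between -0.31 and 0.16 throughout, a range wider than that of 2.44% of features. The words bright and dim sort the members by these same values. A value of 1 or more was given to 3 of 5 members for Bdp1 and 4 of 6 for each of the other 3 proteins at 0 min. The share of all features at 1 or more was 28.8%, 22.7%, 22.9% and 25.9% on the arrays of Bdp1, Brf1, C160 and Tau95 at 0 min, and 29.5%, 27.8%, 25.4% and 27.9% at 30 min, when 4 of 6, 5 of 6, 5 of 6 and 2 of 4 members reached it.

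**Figure D1:**
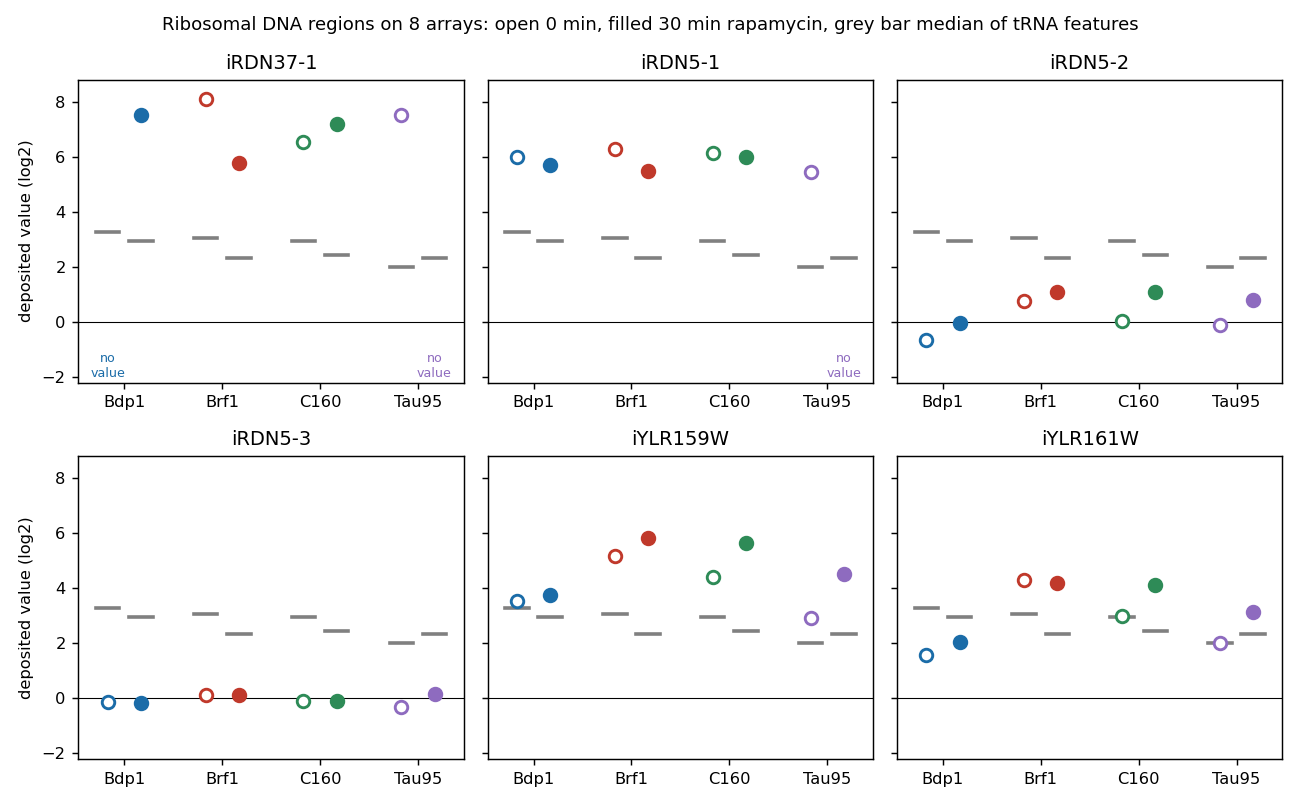
Deposited log2 value (vertical axis) of the 6 ribosomal DNA regions for each protein (horizontal axis), with open circles at 0 min, filled circles at 30 min of rapamycin and a grey bar at the median of the features named for nuclear tRNA genes on the same array; each point is 1 array. The regions iRDN37-1 and iRDN5-1 stand above the tRNA median on every array with a value, iRDN5-2 and iRDN5-3 stand below it on all 8, and iYLR161W lies below it for Bdp1 at both times.

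Set against the tRNA genes, the main class of Pol III genes, the outer 5S regions differed between proteins. The median of the tRNA features (n = 241 to 245) was 2.01 for Tau95, 3.06 for Brf1, 3.28 for Bdp1 and 2.95 for C160 at 0 min. The feature iYLR161W lay 1.24 above that median for Brf1 and close to it for C160 (0.03) and Tau95 (-0.0072), but at -1.69 from it for Bdp1. At 30 min it was at -0.89 for Bdp1 and above the median for the others, by 0.82 for Tau95, 1.86 for Brf1 and 1.67 for C160. For iYLR159W the distance at 0 min was 0.91 for Tau95, 2.09 for Brf1, 0.25 for Bdp1 and 1.46 for C160, and at 30 min it was 2.18, 3.51, 0.81 and 3.20. Since a fragment's own brightness is in all these distances, it is their spread over the proteins that the arrays bear on.

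The first comparison asks whether the parts of the machinery sit alike on 5S regions. Within TFIIIB, Bdp1 read far lower than Brf1 at the outer 5S regions, both before and after rapamycin. Bdp1 holds TFIIIB on the DNA, and Brf1 makes contact with TFIIIC and the polymerase. Both carried the same myc tag. The difference Bdp1 minus Brf1 at iYLR161W was -2.71 at 0 min, a Brf1 value 6.54 times that of Bdp1, and no other of 6025 features had a lower one. At 30 min it was -2.12, the 22nd lowest of 5609. The feature iYLR159W had -1.62 at 0 min (37th lowest) and -2.07 at 30 min (28th lowest). The dim iRDN5-2 had -1.41 and -1.13 at 0 and 30 min.

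In the main repeat iRDN5-1 had -0.29 at 0 min and 0.23 at 30 min. The dim iRDN5-3, outside the main repeat, had -0.24 and -0.31. With the arrays scaled to equal spread, iRDN5-1 had -2.2004 at 0 min, past 2-fold, and -0.16 at 30 min, where its direction turned, while iYLR161W had -3.74 and -2.14 and iYLR159W -3.04 and -2.1997. The tRNA median was then -0.91 and 0.41. The feature iRDN37-1 had 1.75 at 30 min and no difference at 0 min, where Bdp1 has no value. Over the tRNA features the median of this difference was 0.09 at 0 min (quartiles -0.45 and 0.63) and 0.59 at 30 min (quartiles -0.20 and 1.33). Of 245 tRNA features, 0 were below iYLR161W and 2 below iYLR159W at 0 min. At 30 min 3 of 241 were below each.

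The regions iYLR161W, iYLR159W and iRDN5-2 were lower for Bdp1 than for Brf1 by 2-fold or more at both times, which makes 3 of the 5 members with values on all 4 arrays. Over all features this was so for 2.25% (124 of 5510), and over tRNA features for 4 of 241. At single times the background was 5.98% lower and 7.40% higher at 0 min, and 9.06% lower and 13.2% higher at 30 min. The arrays of the earlier and the later time are separate, while the tagged strains are the same. With C160 in place of Brf1, a choice made after the data were seen, the difference was -1.39 at iYLR161W and -0.88 at iYLR159W at 0 min. At 30 min it was -2.06 and -1.88, beyond all 245 tRNA features in both cases. Past 2-fold were 1 of 5 members at 0 min, against a background of 4.16% lower, and 3 of 6 at 30 min, against 8.40%.

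**Figure D2:**
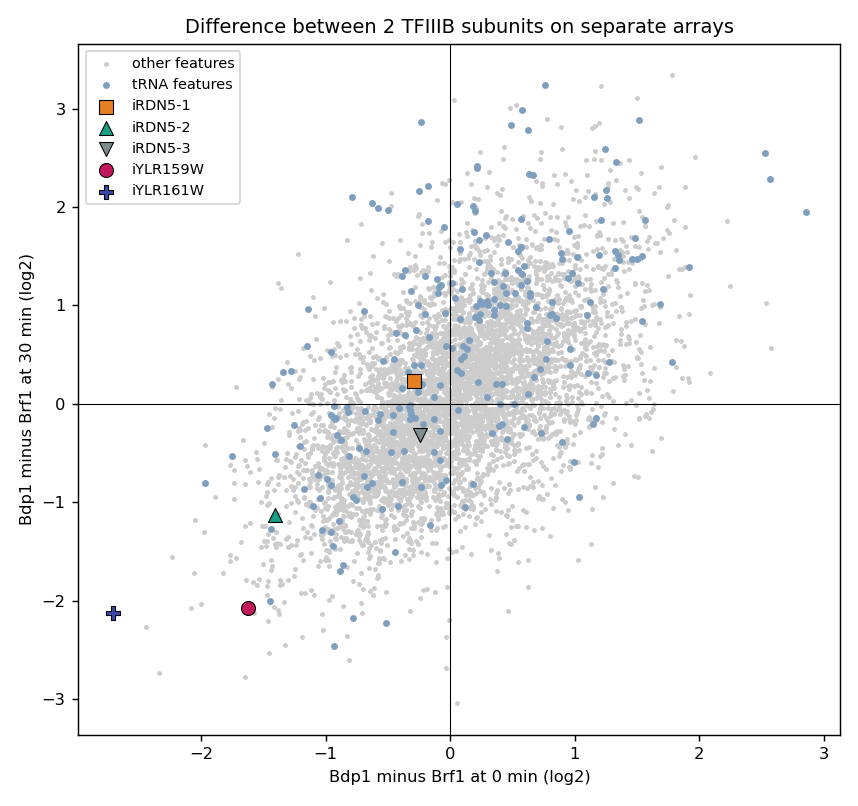
Difference Bdp1 minus Brf1 (log2) at 0 min (horizontal axis) and at 30 min (vertical axis) for all features with the 4 values, with tRNA features in blue, other features in grey and 5 ribosomal DNA regions as large symbols; iRDN37-1 has no value at 0 min. The points of iYLR161W (-2.71 and -2.12) and iYLR159W (-1.62 and -2.07) lie at the lower left edge of the cloud, while iRDN5-1 and iRDN5-3 lie near its centre.

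Neighbouring fragments of the same stretch moved with this result. Of 11 other features named for genes from YLR155C to YLR163C, among them the asparaginase genes, 9 were lower for Bdp1 than for Brf1 at 0 min and 10 at 30 min. Their median difference was -0.48 at 0 min (from -1.47 at iYLR160C-0 to 0.15 at iYLR162W-B). It was -1.03 at 30 min (from -1.93 at iYLR157C-A to 1.04 at iYLR162W-B). At 0 min 2 of 11 were 2-fold lower, against 5.98% of all features, and at 30 min 6 of 11 were, against 9.06%, and 1 of 11, iYLR162W-B, was 2-fold higher. The medians over all features were 0.01 and 0.06. The part of the whole stretch, or of the strains' copy number there, in the values of iYLR159W and iYLR161W was not tested.

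Tau95, in TFIIIC, also read lower than Brf1 at the outer 5S regions. The difference Tau95 minus Brf1 was -2.29 at iYLR161W and -2.23 at iYLR159W at 0 min, the 19th and 22nd lowest of 6273 features, while the tRNA median was -1.01 (quartiles -1.49 and -0.55). At 30 min it was -1.04 and -1.33, against a tRNA median of 0.03 (quartiles -0.43 and 0.50). Members past 2-fold, all lower, were these 2 of 6 at 0 min and 2 of 4 at 30 min, against a background of 7.29% lower at 0 min and 2.82% at 30 min. The features of the main repeat stood on the other side of the tRNA median at 0 min, with -0.82 at iRDN5-1 and -0.56 at iRDN37-1. With equal spread they lay below it, at -2.39 and -2.62 beside a median of -1.75, and at 30 min iYLR159W (-0.85) and iYLR161W (-0.70) were no longer past 2-fold. The main-repeat features iRDN5-1 and iRDN37-1 had no value for Tau95 at 30 min. Against C160 in place of Brf1 the outer regions were nearer to the tRNA features at 0 min, with -1.49 at iYLR159W and -0.98 at iYLR161W beside a tRNA median of -0.86, and 34 and 95 of 245 tRNA features were lower. At 30 min they had -1.14 and -0.97 beside -0.14. Past 2-fold was iYLR159W alone at each time, 1 of 6 and 1 of 4 members, against a background of 4.96% and 1.83% lower.

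For C160, the polymerase, the difference to Brf1 was below 0 at all 6 members at 0 min. The median over all features was below 0 too, at -0.04. The difference was -1.56 at iRDN37-1, the 12th lowest of 6273 features, and -1.32 at iYLR161W, the 46th lowest. Those 2 of 6 were past 2-fold, against a background of 2.50% lower. It was -0.74 at iYLR159W, -0.73 at iRDN5-2, -0.20 at iRDN5-3 and -0.12 at iRDN5-1, against a tRNA median of -0.19. At 30 min iRDN37-1 had 1.44, the 55th highest of 5750, and was the 1 member past 2-fold, against a background of 4.45% higher. The other members lay between -0.24 and 0.51, with a tRNA median of 0.12. With equal spread iRDN5-1 had 1.23, and iYLR159W and iYLR161W turned from -0.19 and -0.07 to 0.53 and 0.45. These comparisons share the Brf1 arrays and are not independent of each other.

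The second comparison asks how rapamycin alters the presence of each protein. For C160 the outer 5S regions were brighter at 30 min, while tRNA features were on balance dimmer. The change, 30 min minus 0 min, was 1.23 at iYLR159W (from 4.41 to 5.64, a ratio of 2.35), 1.14 at iYLR161W (from 2.98 to 4.12) and 1.06 at iRDN5-2 (from 0.03 to 1.09). These ranked 86th, 127th and 174th highest of 6258 features. They are 3 of 6 members past 2-fold upward, against a background of 3.36%, and no member was past 2-fold downward, against 2.17%.

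In the main repeat C160 had a change of 0.67 at iRDN37-1 and -0.17 at iRDN5-1. At the dim iRDN5-3, outside the main repeat, it had -0.02. The tRNA features had a median change of -0.34 (quartiles -0.79 and 0.02, n = 245), with 4 of them 2-fold higher (1.63%) and 41 lower (16.7%). Of the tRNA features, 99.2% had a lower change than iYLR159W and iYLR161W each. In the main repeat the change of iRDN37-1 was above that of 95.1% of the tRNA features, while the change of iRDN5-1 lay within the tRNA quartiles.

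For Tau95 all 4 members with both values were brighter at 30 min. The change was 1.58 at iYLR159W (from 2.93 to 4.50, a ratio of 2.99), 1.14 at iYLR161W (from 2.004 to 3.15), 0.92 at iRDN5-2 and 0.47 at iRDN5-3. Of the 4, 2 were past 2-fold upward, against a background of 6.87%, and 0 downward, against 1.81%. The tRNA features also read higher for Tau95, with a median change of 0.26 (quartiles -0.07 and 0.68, n = 245), and all features had a median of 0.19. The change at iYLR159W was above that of 97.6% of the tRNA features, and that at iYLR161W above 91.8%. This array at 30 min lacked both regions of the main repeat, so no change could be computed there.

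For Brf1 the main repeat was dimmer at 30 min, while the changes of the outer regions lay above the tRNA median. The feature iRDN37-1 went from 8.09 to 5.76, a change of -2.33 or a ratio of 0.199, and ranked 21st lowest of 5759 features. It was the 1 of 6 members past 2-fold downward, against a background of 7.10%, and none was past 2-fold upward, against 5.28%. The feature iRDN5-1 went from 6.27 to 5.48, a change of -0.79, beside a tRNA median of -0.73 (quartiles -1.27 and -0.07, n = 241), with 33.6% of tRNA features 2-fold lower. The outer regions had 0.68 at iYLR159W and -0.11 at iYLR161W, above 93.8% and 73.9% of the tRNA features, and iRDN5-2 had 0.33 and iRDN5-3 0.02. With the arrays scaled to equal spread, iYLR159W turned to -0.68 and iYLR161W had -1.21, past 2-fold downward, both above a tRNA median that was then -1.499. The features iRDN5-1 and iRDN37-1 then had -2.36 and -4.28, below the lower tRNA quartile of -2.11. The Brf1 array at 30 min lacked 639 features, the most of all, and its highest value was 6.81 where that at 0 min was 8.09, at iRDN37-1 itself. The part of this array in the change of iRDN37-1 was not tested.

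For Bdp1 the changes were small. They were 0.61 at iRDN5-2, 0.47 at iYLR161W, 0.23 at iYLR159W, -0.05 at iRDN5-3 and -0.27 at iRDN5-1, where the values had gone from 5.98 to 5.71. None of 5 members was past 2-fold, and over all features 0.777% were higher and 2.72% lower by that limit. The changes at iRDN5-2, iYLR161W and iYLR159W were above those of 97.1%, 94.7% and 89.4% of the tRNA features. Those at iRDN5-3 and iRDN5-1 were above 64.9% and 43.7%. The tRNA features had a median of -0.21 (quartiles -0.46 and 0.05, n = 245). The change of iRDN5-1 was thus 0.06 below the tRNA median for Bdp1 (-0.06), 0.07 below it for Brf1 (-0.07) and 0.18 above it for C160, inside the tRNA quartiles in all 3 cases as deposited, though with equal spread it lay below them for Brf1. At iYLR159W the change exceeded the tRNA median for all 4 proteins, by 1.32 for Tau95, 1.41 for Brf1, 0.44 for Bdp1 and 1.58 for C160, and at iYLR161W by 0.88, 0.61, 0.68 and 1.48. The dim regions exceeded it too. In the same order of proteins the excess was 0.655, 1.05, 0.82 and 1.41 at iRDN5-2. It was 0.21, 0.75, 0.16 and 0.32 at iRDN5-3. The median change over all features also lay above the tRNA median for Brf1 (-0.03), Bdp1 (0.04) and C160 (0.09). For Tau95 it lay below, at 0.19 beside 0.26. The changes of the 4 proteins rest on separate arrays.

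**Figure D3:**
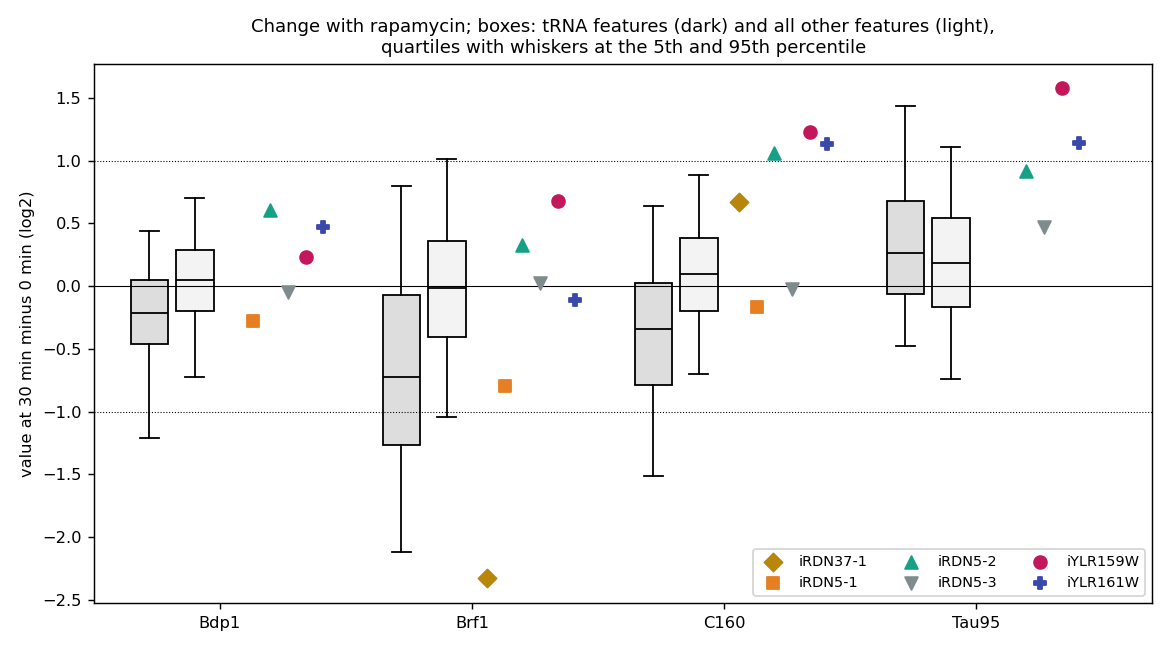
Value at 30 min minus value at 0 min (log2, vertical axis) for each protein (horizontal axis), with symbols for the ribosomal DNA regions, boxes for tRNA features (dark) and all other features (light) with whiskers at the 5th and 95th percentile, and dotted lines at 2-fold. For C160 the symbols of iYLR159W, iYLR161W and iRDN5-2 lie at 1.23, 1.14 and 1.06, above the whisker of the tRNA features, and for Brf1 iRDN37-1 lies at -2.33.

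The features around the ribosomal DNA did not form an unbroken bright stretch. Between the bright members lay dim features, such as iYLR155C-B and iYLR157C-B, which stayed below 1 on all 8 arrays. On the left, iYLR154C, whose next gene is a tRNA gene, had between 2.27 for Tau95 and 3.66 for Brf1 at 0 min. Its change with rapamycin was 0.61 for Tau95, -0.45 for Brf1, 0.04 for Bdp1 and -0.25 for C160. On the right, the feature iYLR162W-A was bright, at 3.93 for Tau95, 4.50 for Brf1, 4.28 for Bdp1 and 4.32 for C160 at 0 min, and 4.23, 4.73, 4.40 and 5.12 at 30 min. The feature iYLR162W-B had 2.12, 2.13, 2.29 and 2.11 at 0 min. The open reading frame YLR162W follows the 5S gene RDN5-6. The gene table holds YLR162W-A, as RRT15, but has no entry for YLR162W-B. Whether the letters A and B on the array mark parts of 1 region or separate genes is thus not known here. Both features had levels above 1 on all 8 arrays, and the difference Bdp1 minus Brf1 there was -0.23 and 0.15 at 0 min and -0.34 and 1.04 at 30 min. Next to them iYLR163C, beside MAS1, which encodes a subunit of the mitochondrial processing protease, had 0.26, 1.03, 0.92 and 1.01 at 0 min.

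The 11 other features from YLR155C to YLR163C, of which iYLR162W-B, iYLR162W-A and iYLR163C lie to the right of the last 5S gene, were mostly brighter at 30 min. For C160 10 of them had a change above 0, with a median of 0.53, and for Tau95 10 had one, with a median of 0.55. For Brf1 and for Bdp1 there were 8 each, with medians of 0.39 and 0.12. The medians over all features were 0.09, 0.19, -0.03 and 0.04 for C160, Tau95, Brf1 and Bdp1. The highest change for every protein was that of iYLR155C-A, which had 1.37 for C160, 1.13 for Tau95, 1.81 for Brf1 and 0.63 for Bdp1. The lowest were -0.48 at iYLR160C-1 for C160, -0.16 at iYLR155C-B for Tau95, -0.35 at iYLR162W-B for Brf1 and -0.25 at iYLR160C-1 for Bdp1. The changes of the outer 5S regions thus stood beside a smaller shift of the stretch in the same direction for C160 and Tau95, and its part in them was not tested.

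**Figure D4:**
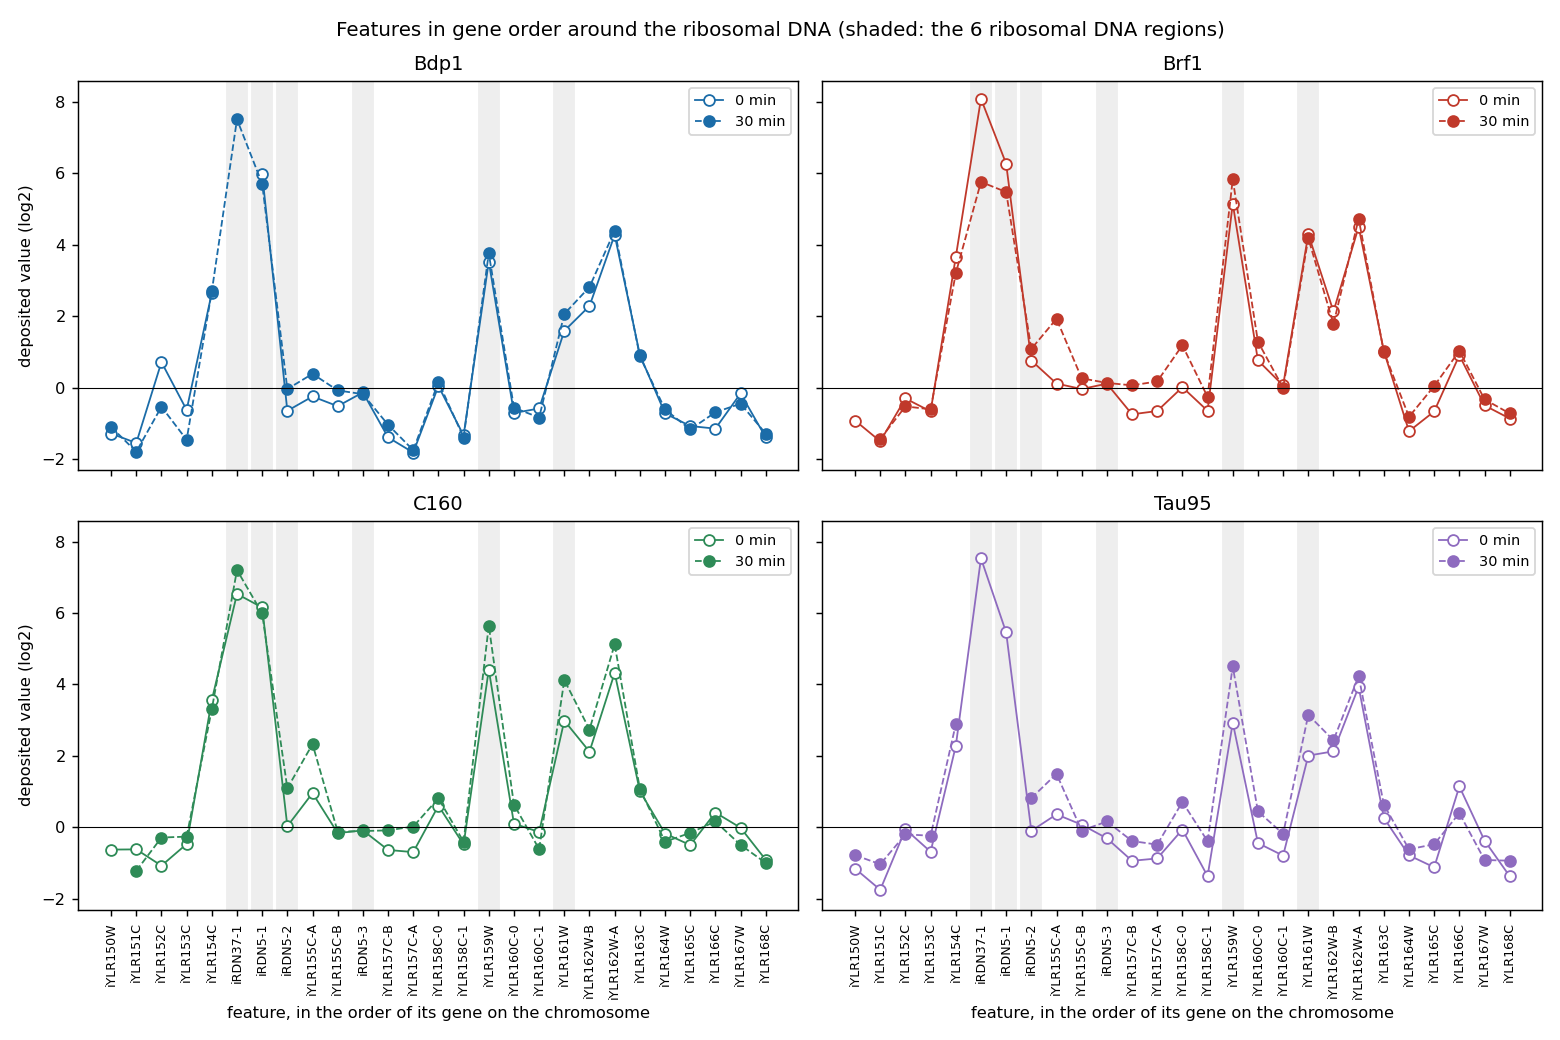
Deposited log2 value (vertical axis) of 27 features around the ribosomal DNA, in the order of their genes on chromosome XII (horizontal axis, not to scale), with 1 panel per protein, open circles at 0 min and filled circles at 30 min; the 6 ribosomal DNA regions are shaded. At 0 min iRDN37-1 or, for Bdp1, iRDN5-1 is the highest of the stretch, and at 30 min iYLR159W is highest for Brf1 (5.83) and, with both main-repeat regions missing, for Tau95 (4.50).

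Both regions of the main repeat lacked values on some array. On the Tau95 array at 30 min 8 of the 34 features with a mean of 5 or more on the other arrays had no value (23.5%), iRDN37-1 and iRDN5-1 among them, while 2.34% of all features were missing there. The highest value on that array was 5.61. On the Bdp1 array at 0 min 2 of 30 such features were missing (6.67%), iRDN37-1 among them, near the 5.80% of all features missing there, and the highest value was 7.38. The other 6 arrays lacked 0 of 29 to 35 such features. The regions of the main repeat were bright wherever they had a value, and no bound could be set for the missing ones.

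Features with the nearest profile were sought by the root mean square difference of log2 values over shared arrays, a measure in which each fragment's own brightness counts. The nearest to iRDN5-1 was iYDRWDELTA25, named for a Ty long terminal repeat, at 0.38 over 7 arrays, followed by iYERWDELTA21-2 (0.49), iYLR035C-A-0 (0.52), iYERWDELTA21-1 (0.53) and iYFL064C (0.57). For iRDN37-1 the nearest were farther off, with iYDR439W-0, beside LRS4, at 0.97 over 6 arrays and iYOR099W, beside KTR1, at 1.10. They were followed by iYLR035C-A-1 (1.14), iYDRWDELTA25 (1.23) and iYHL049C-0 (1.30). LRS4 encodes a monopolin subunit that acts in the ribosomal DNA.

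The nearest to iYLR159W was iYKR073C (0.58 over 8 arrays), whose next gene is a tRNA gene, then iTQ(UUG)D2, named for a glutamine tRNA gene (0.63), iYNL201C beside PSY2 (0.64), iYLR466W beside YRF1-4 (0.68) and iYLRCDELTA8 (0.68). The nearest to iYLR161W was iYOL109W beside ZEO1 (0.52), with a tRNA gene next, then iYARCDELTA5 (0.60), iYiL102C (0.63), also with a tRNA gene next, iYNL261W beside ORC5 (0.64) and iTW(CCA)M, named for a tryptophan tRNA gene (0.65). The dim members had close matches among many features, at 0.24 to 0.26 for iRDN5-2 (beside RCN2, UBA3, DSS1, YPP1 and HOL1). For iRDN5-3 they lay at 0.10 to 0.15 (iYGL177W-1, iYOR250C, iYNL321W, iYPL251W and iYOL145C).

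Other Pol III genes gave a scale for these changes. SNR6, the U6 RNA gene, had changes of 0.54 for Tau95, 0.03 for Brf1, -0.14 for Bdp1 and -0.29 for C160, and RPR1, the RNase P RNA gene, had -0.0031, -0.40, 0.19 and -0.09. SCR1, the gene of the signal recognition particle RNA, had 0.73, 1.77, -0.02 and -0.41. For C160 the change was thus below 0 at these 3 genes, where it was above 1 at iYLR159W and iYLR161W. At the regions that adjoin the end of a 5S gene it was -0.02 at iRDN5-3, -0.17 at iRDN5-1 and 1.06 at iRDN5-2. The feature of SNR52, a snoRNA gene, was dim, and had changes of -0.22 for Brf1, 0.72 for C160 and -0.36 for Tau95.

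Regions beside the genes of factors that act on 5S RNA or the ribosomal DNA served as lists. Of 8 genes for TFIIIA and 5S RNA partners, 6 had a feature, and their changes had medians of 0.23 for Tau95, 0.04 for Brf1, -0.04 for Bdp1 and 0.15 for C160. For C160 1 of 6 features was past 2-fold and for Tau95 1 of 6, against 5.53% and 8.68% of all features in either direction. For Bdp1 and Brf1 it was 0 of 6 each, against 3.50% and 12.4%. Those called were RPL11B, a ribosomal protein that binds 5S RNA, with -1.14 for C160, and RRS1, a 5S assembly factor, with 1.39 for Tau95. The other extremes were RPF2 with -0.71 for Bdp1 and -0.18 for Brf1, RPL11A with 0.40 for Bdp1 and 0.62 for Brf1, RRS1 with 0.65 for C160 and RPL5 with -0.56 for Tau95.

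Of 24 genes of Pol I and its factors, 23 had a feature, with medians of 0.02, -0.09, 0.22 and 0.29 for Bdp1, Brf1, C160 and Tau95. Past 2-fold were 1 of 22 for Bdp1, 2 of 21 for Brf1, 2 of 22 for C160 and 1 of 22 for Tau95. The lowest were RPA135, whose next gene is a tRNA gene, at -2.02 for Brf1, RPC10 at -1.03 for C160, RRN9 at -0.69 for Bdp1 and RPB5 at -0.9985 for Tau95. RPB5, RPC10 and RPO26 encode subunits that Pol I shares with the other nuclear polymerases. The highest were RRN10 at 1.76 for Brf1, RPA49 at 1.33 for C160, RPO26 at 1.32 for Tau95 and RRN5 at 1.16 for Bdp1.

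Of 15 genes for silencing and replication fork block in the ribosomal DNA, 12 had a feature, with medians of -0.14, -0.36, -0.05 and 0.46 in the same order of proteins. The lowest was YCS4, a condensin gene with a tRNA gene next, at -0.72 for Bdp1, -1.33 for Brf1 and -0.66 for C160, and SRC1 at -0.27 for Tau95. The highest were RPD3 at 0.88 for Bdp1, SRC1 at 0.44 for Brf1, LRS4 at 1.25 for C160 and BRN1 at 1.82 for Tau95. Past 2-fold were 0 of 14 features for Bdp1, 1 of 11 for Brf1, 1 of 14 for C160 and 3 of 13 for Tau95. In either direction the background was 3.50%, 12.4%, 5.53% and 8.68% for the 4 proteins, so that most of these shares were near it.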

How the data were processed

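Chromatin immunoprecipitation of 4 tagged proteins was measured on 8 arrays of intergenic regions, 1 per protein and time. The authors deposited log2 values, 1 for each feature of an array. Triplicate experiments and scaling of the enrichment ratios to a median of 1 over loci without Pol III are stated in the labels' design text. The background correction, the spot filters, the way replicates were combined and the genome build of the array are not given in the sources, and coordinates are left out for that reason.

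Base 2 was read from the values: among the 2873 lowest values of Brf1 at 30 min, taken as powers of 2, 93.9% fell on a multiple of 1/157 with a tolerance of 0.05 steps, where chance gives 10%. The step was chosen on each array as the strongest for its values, while the 10% holds for a step fixed in advance. With each array's own step, the share was 18.7% to 37.3% on 5 other arrays and 9.2% for Bdp1 at 30 min. On that Bdp1 array base 2 was still the strongest (0.126, 0.058 and 0.071 for base 2, e and 10). On the Tau95 array at 30 min no base stood out (strengths of 0.047, 0.050 and 0.042 for base 2, e and 10), so its folds rest on the other arrays' base. With 1 array per group no test was made, and nothing is stated on the Dmaf1 strain.

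Values were used as deposited. Changes, differences between proteins (C160, Bdp1 and Tau95, each minus Brf1), ranks and counts past 2-fold were computed over all 6399 features with Python 3.11.15, numpy 2.4.6 and pandas 2.3.3, and the steps were checked on simulated arrays. The tRNA class holds 250 features with the name of a nuclear tRNA gene. Names and neighbours of genes are those of RefSeq (R64), where 5571 of 6055 features with a chromosomal locus name were found. Named features are the 6 members, features near the ribosomal DNA that adjoin it or reach 1 on 4 or more arrays, the 5 nearest profiles of each member over at least 6 arrays, 4 other Pol III genes, and the highest and lowest change of each list. Any feature named outside this rule was chosen after its values were seen. Members and lists were chosen with earlier results of these data known. Alternatives were another zero, equal spread, percentiles, other limits and other references.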

Additional observations from a re-analysis of the deposited data

Results flagged for a closer look

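The regions iRDN37-1, iYLR161W and iRDN5-3 had changes with rapamycin of opposite sign for different proteins, which could not be tested with 1 array per group. At iRDN37-1 the change of C160 (0.67) and that of Brf1 (-2.33) differed by 3.00. At iYLR161W the change of Tau95 (1.14) and that of Brf1 (-0.11) differed by 1.25. At iRDN5-3 the change of Tau95 (0.47) and that of Bdp1 (-0.05) differed by 0.52. The negative changes at iYLR161W and iRDN5-3 were small, above those of 44.1% and 39.6% of features, so the opposite signs there carry little weight.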

How the results depend on the processing

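No paired analysis was possible because each group has 1 array and no replicate values. Of 95 alternative counts, 80 were within 1.5 times the reported one and 15 were not; no called value changed sign. With equal spread of the arrays, members past 2-fold for the Brf1 change were 3 and members higher at 30 min 1, and members past 2-fold were 5 for Tau95 minus Brf1 at 0 min, 0 for it at 30 min and 2 for C160 minus Brf1 at 30 min; such scaling moves bright features by construction. With 1.5-fold as the limit, 1 member was past it for Bdp1 and 3 for Brf1, and with 3-fold 0 for C160 and 0 for Tau95. Among features with all 8 values, 0 members were past 2-fold for Brf1, since iRDN37-1 is left out. With C160 in place of Brf1, 1 member was past 2-fold for Bdp1 at 0 min, 1 for Tau95 at 0 min and 1 for Tau95 at 30 min. Above the upper quartile of tRNA features lay 1 member for Bdp1 at 0 min and 1 for Tau95 at 30 min. Centring on all features put the C160 change of iRDN5-2 at 0.99, just under 2-fold. The number of arrays limits the precision.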

Other observations

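The outer 5S regions were not alone in reading lower for Bdp1 than for Brf1 at both times. A difference of -1.5 or lower at both 0 and 30 min was found at 20 of 5510 features (0.363%), of which iYLR159W and iYLR161W are 2. One of the others, iYLR166C beside SEC10, an exocyst gene, lies to the right on the same chromosome arm, with -2.06 and -1.72, and was singled out after its values were seen. At 0 min it had 1.14 for Tau95, 0.91 for Brf1, -1.15 for Bdp1 and 0.41 for C160.

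Features with a mean of 5 or more over the arrays numbered 31. Of these, 2 were members (iRDN37-1 and iRDN5-1), 5 were named for tRNA genes, 8 for an open reading frame with a tRNA gene next and 4 for long terminal repeats, while 12 belonged to none of these classes.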
